A study of Mus musculus with 12 samples.

Results

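The tissue isoform genes of cytochrome c oxidase were examined in hearts of mice lacking the complex II assembly factor SDHAF4 in striated muscle. These are the heart and muscle type subunits Cox6a2, Cox7a1 and Cox8b, their liver type (widely expressed) partners Cox6a1, Cox7a2 and Cox8a, both isoforms of subunit IV, Cox4i1 and Cox4i2, and Ndufa4, 9 genes of the 43686 rows of the table. They were chosen by name, and the log2 ratio of the members of each pair was taken within each library. The 6 WT mice carried floxed Sdhaf4 alleles without Cre (Sdhaf4 fl/fl). The 6 KO mice carried the same floxed alleles together with the Ckmm-Cre transgene (Sdhaf4 fl/fl, Ckmm-Cre; Sdhaf4Ckmm), in which the muscle creatine kinase promoter drives Cre in heart and skeletal muscle, so that the other cell types of the heart are not targeted. The labels call the strain C57BL/6, the mutants Sdhaf4-/- and the age postnatal month 2 in both groups. The study's own account of the sequencing gives a younger age. Its reporting summary states that male mice were used for omics, and the older of the ages it lists is close to that of the labels. RNA of the ventricular wall was sequenced as poly-A selected libraries, 1 per heart, and it is not stated whether any hearts were pooled.

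Cytochrome c oxidase, complex IV of the respiratory chain, passes electrons from cytochrome c to oxygen and pumps protons. Its catalytic core is encoded by mitochondrial DNA, and nuclear genes encode the smaller subunits around it. For subunits VIa, VIIa and VIII, the mouse has a heart type isoform, made in heart and skeletal muscle, and a liver type isoform. The liver type is made in most tissues and is abundant in the fetal heart. Subunit IV has a ubiquitous isoform, Cox4i1, and an alternative isoform, Cox4i2, known for its expression in lung and for its response to low oxygen. Ndufa4, first assigned to complex I, was later placed in complex IV.

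The sequences before the transcription start of the genes that form the pairs are shown because the isoforms of a pair moved differently in the KO hearts. Each is the 250 bases upstream of the annotated start, written 5′ to 3′ on the gene's strand, from RefSeq on GRCm38.p6, in which 6 of the 9 genes had an entry. The windows are chr7:30183921-30184170 (plus strand, Cox7a1), chr9:79759854-79760103 (minus, Cox7a2), chr7:140900447-140900696 (minus, Cox8b), chr19:7217617-7217866 (minus, Cox8a) and chr5:115348959-115349208 (minus, Cox6a1). Capitals mark matches, on either strand, to the 8 short motifs that are spelled out after the sequences.
Cox7a1: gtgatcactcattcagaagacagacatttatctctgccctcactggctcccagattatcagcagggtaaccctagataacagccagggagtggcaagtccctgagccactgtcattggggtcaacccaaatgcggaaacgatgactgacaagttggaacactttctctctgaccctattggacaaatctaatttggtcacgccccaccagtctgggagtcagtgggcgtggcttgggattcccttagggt
Cox7a2: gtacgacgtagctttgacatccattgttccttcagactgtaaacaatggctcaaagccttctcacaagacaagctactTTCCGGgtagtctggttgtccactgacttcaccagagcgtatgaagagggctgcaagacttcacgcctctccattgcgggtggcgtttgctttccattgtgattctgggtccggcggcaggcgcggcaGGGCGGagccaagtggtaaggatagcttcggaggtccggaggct
Cox8b: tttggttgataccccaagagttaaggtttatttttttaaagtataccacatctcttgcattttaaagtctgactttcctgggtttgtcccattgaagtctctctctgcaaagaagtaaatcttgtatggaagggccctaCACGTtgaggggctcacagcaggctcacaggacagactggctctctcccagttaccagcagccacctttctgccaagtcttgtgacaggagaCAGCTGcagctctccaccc
Cox8a: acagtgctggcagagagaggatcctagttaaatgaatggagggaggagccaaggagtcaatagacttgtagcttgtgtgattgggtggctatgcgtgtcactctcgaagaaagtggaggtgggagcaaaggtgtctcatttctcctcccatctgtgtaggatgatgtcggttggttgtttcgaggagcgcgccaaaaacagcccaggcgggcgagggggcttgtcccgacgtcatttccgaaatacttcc
Cox6a1: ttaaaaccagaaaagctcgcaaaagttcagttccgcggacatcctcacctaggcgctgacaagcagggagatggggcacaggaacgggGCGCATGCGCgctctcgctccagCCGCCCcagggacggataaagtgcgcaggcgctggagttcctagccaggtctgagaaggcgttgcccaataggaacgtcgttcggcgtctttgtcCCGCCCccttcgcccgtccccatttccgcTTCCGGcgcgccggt

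The windows of the heart types Cox7a1 and Cox8b held 4 and 1 CpG dinucleotides, against 14 in Cox7a2, 11 in Cox8a and 26 in Cox6a1. Over all 32851 RefSeq windows of this length the median was 6 CpG (quartiles 2 and 16). Cox7a1 and Cox8b lay below this median, and the liver type windows above it. Ndufa4, with 10 CpG, also lay above it. Cox6a2, Cox4i1 and Cox4i2 had no entry. Whether CpG content goes with the change in KO was not tested. The GC content was 51.2% for Cox7a1, 47.2% for Cox8b, 54.8% for Cox7a2, 52.8% for Cox8a and 62.8% for Cox6a1, with a median of 52.4% over all windows. In Cox6a1 there were 2 GC boxes, an ETS core and a palindromic stretch that matches the NRF1 core on both strands, and Cox7a2 had 1 GC box and 1 ETS core. Cox8b had a HIF core on the minus strand, starting 111 bases before the start, and an E box. None of the letters searched occurred in the windows of Cox7a1, Cox8a and Ndufa4 (chr6:11907451-11907700, minus strand). The GC box of Sp1 was searched as GGGCGG and was present in 32.7% of all windows. The ETS core was searched as CCGGAA and was found in 3952 of these windows. The NRF1 core, with the letters GCGCATG, occurred in 3.24% of the windows. For the core of the HIF site the letters were ACGTG, with matches in 16.6% of windows. The E box searched was CAGCTG, which 13.0% of windows contained. The TATA box, as TATAAA, was present in 12.4% of them. The site of estrogen-related receptors was taken as AAGGTCA and had matches in 4.08% of windows. The RBPJ core was taken as TGGGAA, which was contained in 21.6% of windows. Both strands were searched, the GC content and CpG counts cover the same 250 bases, and the matches describe letters only.

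Between 23747014 and 27159228 reads were counted in the WT libraries and between 26542930 and 31393393 in the KO libraries. Sdhaf4 itself was at 14.3, 26.7 and 30.3 CPM (lowest, median and highest of the WT libraries, counts scaled to library size with TMM normalization) and at 2.25, 2.35 and 2.73 CPM in the KO libraries. The groups did not overlap, and the log2 fold change in KO was -3.39 (standard error, SE, 0.16, adjusted p = 1.95e-10). Unless another tool is named, adjusted p-values are those of the quasi-likelihood test in edgeR, corrected by the Benjamini-Hochberg method over all 17155 rows tested. Cardiomyocyte markers were abundant in every library, summing to 52604 to 57404 CPM in WT and 42733 to 58539 CPM in KO over 9 genes. KO replicate 3 stood apart from the other KO hearts for several of the genes described here, and tests whose call changes without it are given both ways. Correlations were not recomputed without it.

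All 9 genes passed the filter on low counts. At an adjusted p under 0.05 by edgeR, 6 were lower in KO hearts (25.5% of all rows tested were lower) and 2 were higher (25.6% of all rows were higher), and Cox4i2 did not pass. Their median log2 fold change was -0.47, against 0.0022 over all rows tested. Under the stricter rule of an adjusted p below 0.005 together with a log2 fold change beyond 1 in size, Cox7a1 alone of the 9 passed, where 10.2% of all rows did in either direction. The CPM of the groups did not overlap for 5 genes lower in KO (15.2% of all rows) and for 1 higher in KO (14.9% of all rows).

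**Figure D1:**
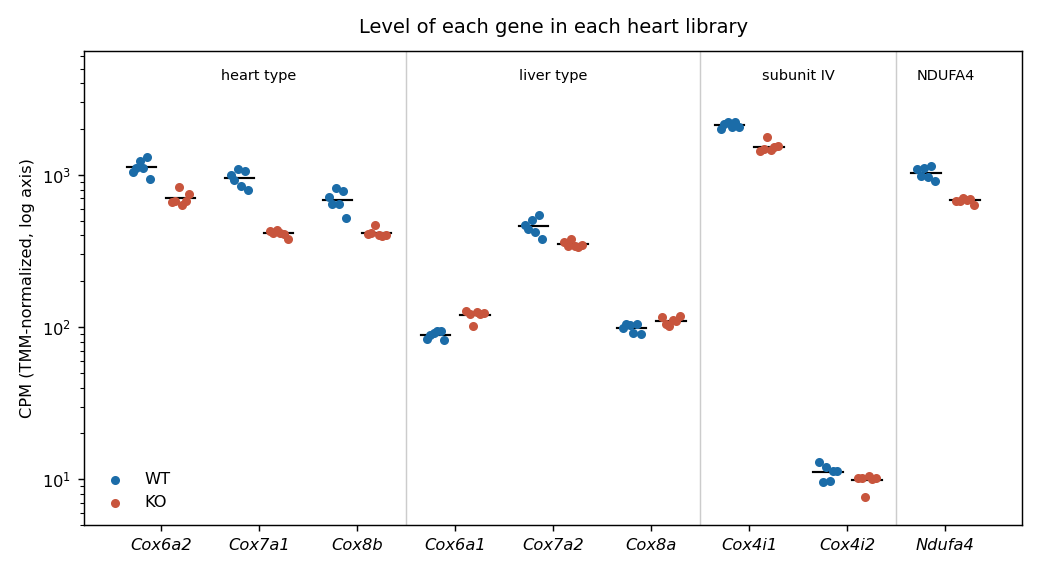
CPM (TMM-normalized counts per library size, log axis) of the 9 genes in each WT (blue) and KO (red) heart, each point 1 library and each line a group mean. Cox6a2, Cox7a1, Cox8b, Cox4i1 and Ndufa4 lie lower and Cox6a1 higher in all KO hearts, and the groups overlap for Cox7a2, Cox8a and Cox4i2.

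All 3 heart type isoforms fell in the KO hearts, and Cox7a1 had the lowest fold change. Cox7a1 encodes the heart type of subunit VIIa (MGP_C57BL6NJ_G0032453, chromosome 7, 30094237 to 30096094, plus strand, on the C57BL/6NJ assembly, which the gene identifiers name and on which all gene positions here are given). It was at 796, 959.6 and 1088 CPM (lowest, median, highest) in WT and at 379, 415 and 434 CPM in KO. Every KO heart was far below every WT heart, and the KO hearts were close to each other. The means were 950.5 ± 116 CPM in WT and 413 ± 18.8 CPM in KO (SD, n = 6 each), which gave a log2 fold change of KO over WT of -1.20 (SE 0.07, adjusted p = 1.47e-09 by edgeR).

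Cox8b, the heart type of subunit VIII (MGP_C57BL6NJ_G0033693, chromosome 7, 151381944 to 151383447, minus strand), was at 521, 676 and 818 CPM in WT and at 397, 407 and 468 CPM in KO. The groups did not overlap, although the highest KO heart, replicate 3, came near the lowest WT heart, replicate 6. The log2 fold change was -0.72 (SE 0.09, adjusted p = 4.54e-06 by edgeR). Cox6a2, the heart type of subunit VIa (MGP_C57BL6NJ_G0033568, chromosome 7, 137785222 to 137786174, minus strand), was at 942, 1113 and 1307 CPM in WT and at 635, 675 and 826 CPM in KO. Again no KO heart reached the WT range, with KO replicate 3 highest and WT replicate 6 lowest. The log2 fold change was -0.68 (SE 0.08, adjusted p = 2.81e-06 by edgeR). Cox6a2 overlaps Itgad on the opposite strand, a gene with between 4 and 40 counts per library against at least 18081 for Cox6a2.

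The liver type isoforms did not move as a group. Cox6a1 (MGP_C57BL6NJ_G0030398, chromosome 5, 122760620 to 122764767, minus strand), the partner of Cox6a2, was at 82.3, 90.3 and 94.2 CPM in WT and at 101, 122 and 127 CPM in KO. All KO hearts were higher than all WT hearts, and KO replicate 3 was the lowest of them. Its log2 fold change was 0.43 (SE 0.06, adjusted p = 1.22e-05 by edgeR).

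Cox8a (MGP_C57BL6NJ_G0025199, chromosome 19, 4419490 to 4421980, minus strand), the partner of Cox8b, was at 89.3, 100.1 and 105 CPM in WT and at 101, 110.3 and 118 CPM in KO. The ranges overlapped, and the rise was small, at a log2 fold change of 0.16 (SE 0.05, adjusted p = 0.0197 by edgeR) that did not pass without WT replicate 4 (0.13, adjusted p = 0.0604). Cox7a2 (MGP_C57BL6NJ_G0035567, chromosome 9, 82480412 to 82485023, minus strand), the partner of Cox7a1, fell. It was at 379, 453 and 546 CPM in WT and at 337, 345 and 381 CPM in KO, and the highest KO heart only just reached the lowest WT heart. The log2 fold change was -0.38 (SE 0.07, adjusted p = 0.000355 by edgeR).

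Cox4i1, the ubiquitous form of subunit IV (MGP_C57BL6NJ_G0034699, chromosome 8, 128235493 to 128241445, plus strand), was at 2008, 2120.3 and 2238 CPM in WT and at 1437, 1501 and 1767 CPM in KO. The groups did not overlap, and the KO hearts other than replicate 3 were at 1554 CPM or less. Its log2 fold change was -0.47 (SE 0.06, adjusted p = 6.17e-06 by edgeR). It overlaps Emc8 on the opposite strand, which had 1144 to 1729 counts per library and a log2 fold change of -0.13 (adjusted p = 0.329). Cox4i2, the alternative form (MGP_C57BL6NJ_G0027101, chromosome 2, 161896848 to 161907883, plus strand), was at 9.54, 11.3 and 12.9 CPM in WT and at 7.65, 10.2 and 10.4 CPM in KO. The groups overlapped, and the log2 fold change of -0.18 (SE 0.10, adjusted p = 0.142 by edgeR) did not pass. At 231 to 319 counts per library it was the least counted of the 9 genes.

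Ndufa4 (MGP_C57BL6NJ_G0030891, chromosome 6, 9306422 to 9313478, minus strand) was at 911, 1036 and 1139.6 CPM in WT and at 635, 682 and 706 CPM in KO. No KO heart came near the WT range, and the log2 fold change was -0.61 (SE 0.06, adjusted p = 3.55e-07 by edgeR). Its paralog Ndufa4l2, a gene known to be induced by low oxygen, was at 22.1 ± 3.47 CPM in WT and 25.5 ± 3.64 CPM in KO (SD, n = 6 each), with overlapping groups and a log2 fold change of 0.21 (adjusted p = 0.139 by edgeR).

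The 6 nuclear subunits that have no heart isoform in this set (Cox5a, Cox5b, Cox6b1, Cox6c, Cox7b and Cox7c) also fell, with a median log2 fold change of -0.44. All 6 had an adjusted p under 0.05 by edgeR, where 25.5% of all rows tested were lower. The groups did not overlap for 4 of them, against 15.2% of all rows lower without overlap. The values were -0.29 for Cox5a, -0.37 for Cox5b, -0.23 for Cox6b1, -0.57 for Cox6c, -0.51 for Cox7b and -0.52 for Cox7c. After each library's smooth trend against gene length and GC content had been subtracted, an alternative chosen after seeing the data, Cox5a (-0.088, adjusted p = 0.205 by limma) and Cox6b1 (-0.0024, adjusted p = 0.973) no longer passed, whereas the calls of the 9 isoform genes at an adjusted p under 0.05 did not change. The log2 fold change of Cox7a1 was then -0.96, short of the stricter threshold of 1, and those of Cox6a2 and Cox8b were -0.485 and -0.479. In the liver type, Cox8a moved to 0.32 (adjusted p = 1.43e-05 by limma) and Cox7a2 to -0.19 (adjusted p = 0.0191).

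**Figure D2:**
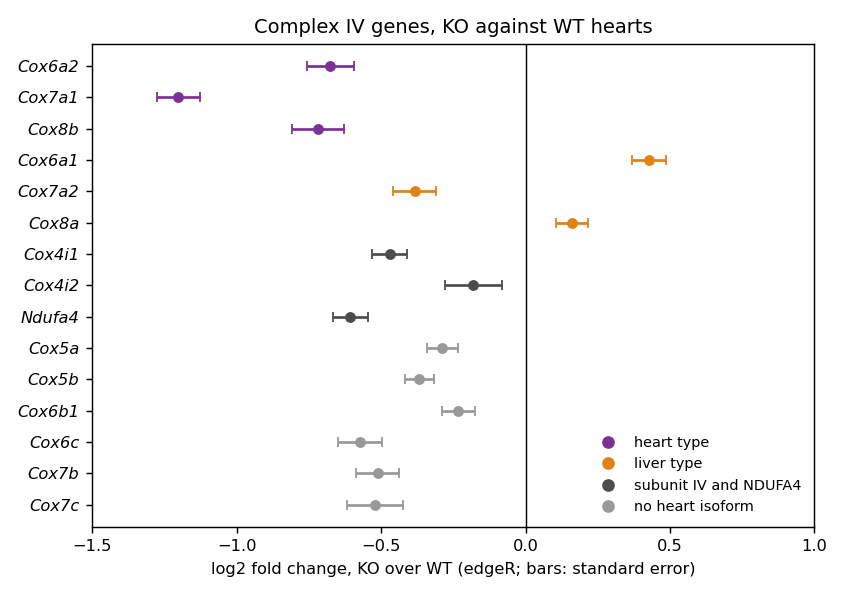
Log2 fold change of KO over WT from edgeR for the heart type, liver type and other isoform genes and for the 6 subunits of complex IV without a heart isoform (points, with standard errors as bars). Cox7a1 has the lowest value, -1.20, Cox6a1 (0.43) and Cox8a (0.16) lie above 0, and the subunits without a heart isoform lie between -0.57 and -0.23.

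Since the subunits fell broadly, each gene was set against the mean log2 count of these 6 subunits in the same library, a value that does not depend on the scaling between libraries. Relative to them, Cox7a1 was lower in KO by 0.78 on the log2 scale (difference -0.78, SE 0.04), Cox8b by 0.29 (-0.29, SE 0.05) and Cox6a2 by 0.26 (-0.26, SE 0.05). Ndufa4 differed by -0.19 (SE 0.03). In the other direction, Cox6a1 was higher by 0.84 (SE 0.08) and Cox8a by 0.57 (SE 0.06). For each of these 6 genes the groups did not overlap, and the two-sided exact permutation test gave p = 0.00216, the smallest that 6 hearts against 6 allow, unadjusted over 13 ratios tested in all.

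Cox7a2 and Cox4i1 did not pass the test relative to these subunits. The difference for Cox7a2 was 0.037 (SE 0.029, exact permutation p = 0.232) and for Cox4i1 it was -0.061 (SE 0.046, exact permutation p = 0.223), with overlapping groups. Cox7a2 without WT replicate 5 gave 0.057 (exact permutation p = 0.0346), and Cox4i1 against the median of the 6 subunits gave -0.076 (exact permutation p = 0.0195). For Cox4i2 the difference was 0.23 (SE 0.12, exact permutation p = 0.0909), and without KO replicate 3 it was 0.32 (exact permutation p = 0.00433).

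Within the pairs of subunits VIa, VIIa and VIII, the ratio of heart type to liver type was lower in KO in all 3. The count of Cox6a2 was 11.4 to 13.9 times that of Cox6a1 in the WT libraries and 5.03 to 8.20 times in the KO libraries. In log2 terms the ratio was 3.52, 3.65 and 3.80 (lowest, median, highest) in WT and 2.33, 2.48 and 3.04 in KO. KO replicate 3 was nearest to WT and the other KO hearts were at 2.61 or less. The mean fell from 3.65 ± 0.11 to 2.55 ± 0.26 (SD, n = 6 each), a difference of -1.10 (SE 0.11, two-sided exact permutation p = 0.00216), in a pair of which the heart type fell and the liver type rose.

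The log2 ratio of Cox7a1 to Cox7a2 was 0.95, 1.07 and 1.12 in WT and 0.12, 0.26 and 0.29 in KO. The count of Cox7a1 was thus at least 1.93 times that of Cox7a2 in every WT heart and at most 1.22 times in every KO heart. The difference in the mean was -0.82 (SE 0.04, two-sided exact permutation p = 0.00216), and here both partners fell. The log2 ratio of Cox8b to Cox8a was 2.54, 2.83 and 2.998 in WT and 1.77, 1.86 and 2.21 in KO, again without overlap and with KO replicate 3 highest among the KO hearts. The difference was -0.87 (SE 0.10, two-sided exact permutation p = 0.00216).

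The pair of subunit IV gave no call. The log2 ratio of Cox4i2 to Cox4i1 was -7.82, -7.59 and -7.28 in WT and -7.85, -7.21 and -7.12 in KO. The groups overlapped because KO replicate 3 was lowest of all 12 hearts, while the other 5 KO hearts were at -7.24 or above. The difference was 0.29 (SE 0.14, two-sided exact permutation p = 0.0606). Without KO replicate 3 it was 0.40 (exact permutation p = 0.00433), and without WT replicate 1 it was 0.35 (exact permutation p = 0.0346), so that the call for this pair rests on single hearts.

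**Figure D3:**
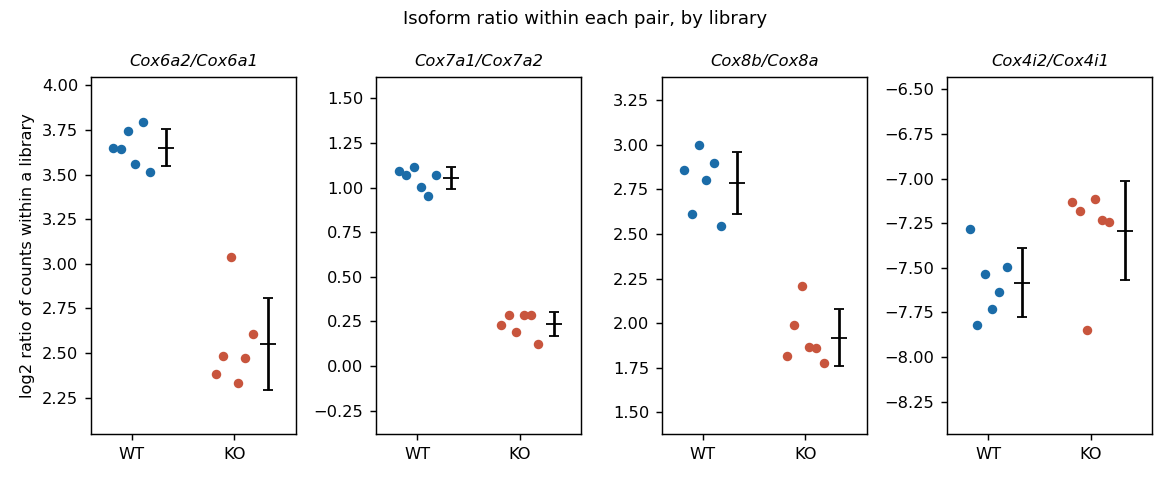
Log2 ratio of counts within each pair in each WT (blue) and KO (red) heart, with the mean and SD of 6 hearts beside the points; the axes span the same range but start at different values. The Cox6a2/Cox6a1, Cox7a1/Cox7a2 and Cox8b/Cox8a ratios are lower in every KO heart, and the Cox4i2/Cox4i1 ratio overlaps between the groups.

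To compare levels between genes, the deposited FPKM (fragments scaled to library size and gene length) was used. By FPKM the heart type made up 91.7 ± 0.56% of subunit VIa transcripts in WT and 83.6 ± 2.26% in KO, 81.1 ± 0.66% and 70.9 ± 0.96% of subunit VIIa, and 91.2 ± 0.98% and 85.0 ± 1.35% of subunit VIII (SD, n = 6 each). The heart type thus remained the more abundant form in every KO heart, with a lowest share of 69.3% in subunit VIIa. Cox4i2 was 0.418 ± 0.0567% of subunit IV transcripts in WT and 0.515 ± 0.0853% in KO, with overlapping groups.

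The summed FPKM of both isoforms was lower in KO for each subunit. The mean sum went from 3211 to 1602 for subunit VIIa, from 2065 to 1350 for subunit VIII, from 1800 to 1235 for subunit VIa and from 3643 to 2633 for subunit IV (n = 6 each), and the groups did not overlap for any of the 4 sums.

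In WT hearts the order of levels by FPKM was Cox4i1 (3628 ± 144), Cox7a1 (2604 ± 287), Cox8b (1885 ± 269), Cox6a2 (1651 ± 164), Ndufa4 (1392 ± 102), Cox7a2 (607 ± 69.6), Cox8a (180.2 ± 11.5), Cox6a1 (149 ± 6.61) and Cox4i2 (15.2 ± 1.72; SD, n = 6 each). The ranges of neighbours overlapped between Cox8b and Cox6a2 and between Cox6a2 and Ndufa4. In KO hearts Cox7a1 (1136 ± 61.6) was no longer set apart from the other heart types. Its range overlapped those of Cox8b (1148 ± 54.0) above it and Cox6a2 (1034 ± 76.7) below it. Cox8a (202 ± 13.9) and Cox6a1 (202 ± 20.3), which were separate in WT, also overlapped in KO, while Cox4i1 stayed first (2619 ± 147) and Cox4i2 last (13.5 ± 1.69). The gene length behind the FPKM was shorter than the length listed in the table for Cox4i1 (585 against 690 bases), Cox4i2 (730 against 733), Cox6a1 (596 against 620) and Ndufa4 (741 against 1232), which bears on levels between genes and not on KO against WT.

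Other isoforms of complex IV subunits were also examined. Of 5 with a row, 3 were tested. Cox6b2, an isoform of subunit VIb known from testis, fell from 3.26 ± 0.755 to 0.531 ± 0.284 CPM (SD, n = 6 each; log2 fold change -2.60, SE 0.29, adjusted p = 1.24e-06 by edgeR), with at least 58 counts in each WT library and 7 to 30 in each KO library. Cox7a2l, which is related to Cox7a2, had a log2 fold change of 0.039 (adjusted p = 0.557) with overlapping groups. With length and GC trends removed, Cox7a2l was at 0.18 (adjusted p = 0.0044 by limma) and Ndufa4l2 at 0.297 (adjusted p = 0.0379 by limma). Cox8c had no counts in any library, and AA467197, a paralog of Ndufa4, had at most 9 counts in WT and 23 in KO.

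The assembly factors of complex IV insert its copper and heme groups and put its subunits together. Of the 22 tested, 6 were lower and 7 higher in KO hearts at an adjusted p under 0.05 by edgeR, counts near the shares over all rows (25.5% lower and 25.6% higher), with a median log2 fold change of -0.037, and none passed both of the stricter thresholds. The lowest value was that of Lrpprc (-0.64), which stabilizes mitochondrial mRNAs, and the highest that of Cox19 (0.75), which acts in copper delivery; these were picked after their values were seen. The table describes 3 unannotated loci as mitochondrially encoded subunits, and these were picked after the descriptions were read. The log2 fold changes were -0.075 for Novel02466, -0.041 for Novel00516 and -0.091 for Novel00583 (adjusted p = 0.522, 0.691 and 0.686 by edgeR), all with overlapping groups. Novel00516 and Novel00583 overlap each other on chromosome 13, and Novel02466 lies on a sequence without a chromosome name (LVXM01049178.1). None of the 3 is placed on a mitochondrial chromosome. Reads of these loci cannot be assigned with certainty, and whether they come from mitochondrial DNA was not tested.

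Among 14 genes for factors known to act on these isoforms, 12 had a row, and 3 were higher and 3 lower in KO, counts at the level of all rows (25.6% higher and 25.5% lower). For Cox4i2, Hif1a, the oxygen-regulated factor, was higher (log2 fold change 0.86, adjusted p = 8.5e-09), as were Epas1 (0.35) and Lonp1 (0.48), a mitochondrial protease that degrades COX4-1. Of the factors not listed for Cox4i2, Mef2d (-0.23), Gabpa (-0.23) and Mef2a (-0.17) were lower, and these 3, Epas1 and Lonp1 were named after their values were seen. The other 6 of the 12 did not pass. Among them were Chchd2 (-0.21) and Cxxc5 (0.16), listed for Cox4i2, and Ppargc1a (-0.028) and Nrf1 (0.0076), which were not. Rbpj was not analysed here.

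The shift within the complex IV pairs was set beside other pairs of a heart or muscle isoform and a partner, as a description. The difference in the mean log2 ratio was -0.84 (SE 0.13) for Slc25a4/Slc25a5, the adenine nucleotide carriers, -0.91 (SE 0.10) for Cpt1b/Cpt1a in fatty acid import and -1.22 (SE 0.12) for Ckm/Ckb, the creatine kinases. It was -0.61 (SE 0.08) for Pygm/Pygb in glycogen breakdown, -1.79 (SE 0.07) for Ldhb/Ldha, -2.46 (SE 0.09) for Pfkm/Pfkp in glycolysis and -1.28 (SE 0.42) for the myosin heavy chains Myh6/Myh7. The KO libraries lay below all WT libraries in each of these 7 pairs. The differences of the complex IV heart and liver pairs, from -1.10 to -0.82, fall inside this range. For Tnni3/Tnni1 the partner had at most 6 counts in WT and 14 in KO, too few for a ratio.

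**Figure D4:**
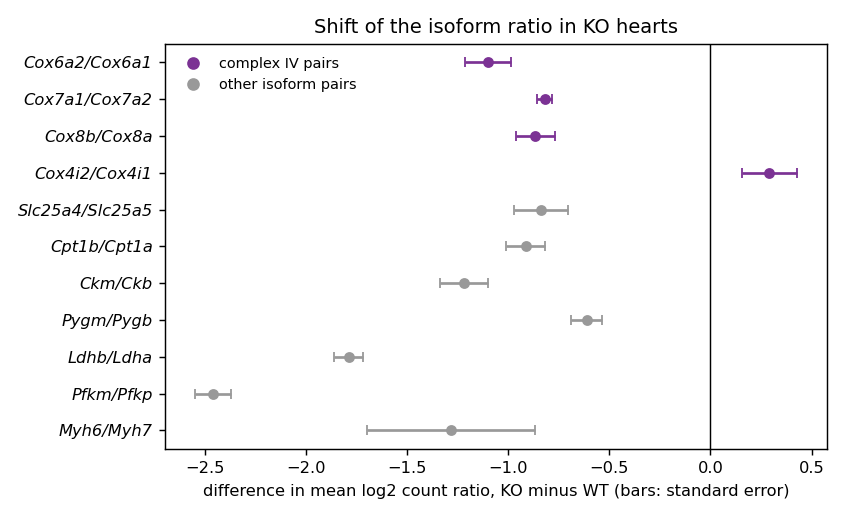
Difference between KO and WT in the mean log2 count ratio within isoform pairs (points, with standard errors as bars), for the complex IV pairs (purple) and other pairs of a heart or muscle isoform over its partner (grey). The 3 heart over liver pairs of complex IV lie between -1.10 and -0.82, inside the span of the other pairs from -2.46 to -0.61, and Cox4i2/Cox4i1 is the only pair shown above 0.

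Markers of cell types were set beside these results. In bulk tissue, fewer cells of a type and less RNA per cell cannot be told apart. All 8 fibroblast markers were higher in KO (median log2 fold change 1.18), their sum rising from 1420.1 to 1670.4 CPM in WT to 2584 to 4867 CPM in KO. Over all rows, 25.6% were higher and 25.5% lower, so counts near these shares are no result about a cell type. Endothelial markers were higher for 4 of 6 (sum 1257 to 1416 CPM in WT and 1371 to 1677 CPM in KO), and pericyte and smooth muscle markers were higher for 3 and lower for 2 of 8 (1834 to 2018 and 1684 to 2228 CPM). Of the 9 cardiomyocyte markers 5 were lower (median log2 fold change -0.30). The part of these markers in the rise of Cox6a1 and Cox8a and in the ratios was not tested.

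Set against the mean log2 count of the 9 cardiomyocyte markers in the same library, with no test, Cox7a1 differed between KO and WT by -0.87 (SE 0.10), Cox8b by -0.38 (SE 0.10), Cox6a2 by -0.35 (SE 0.08) and Ndufa4 by -0.28 (SE 0.08). Cox6a1 differed by 0.75 (SE 0.12) and Cox8a by 0.49 (SE 0.11), while Cox4i1 was at -0.15 (SE 0.05), Cox7a2 at -0.049 (SE 0.097) and Cox4i2 at 0.15 (SE 0.15). Against these markers the groups did not overlap for Cox7a1, Cox6a2 and Cox6a1 and overlapped for the other 6 genes. Of macrophage markers 2 of 6 were lower. Of the 6 adipocyte markers, Ucp1 and Lep had at most 1 count in any library, Plin1 at most 7, Adipoq at most 11 and Cfd at most 24. Cidea, the only one tested, was at 35.8 to 45.4 CPM in WT and 50.1 to 66.9 CPM in KO (log2 fold change 0.53, adjusted p = 5.68e-05 by edgeR). The fast skeletal muscle markers summed to 1.17 to 6.30 CPM in WT and 0.795 to 3.04 CPM in KO. Of the 2 tested, Mylpf was lower (log2 fold change -1.81, adjusted p = 0.00294 by edgeR), at only 19 to 68 counts in WT and 3 to 20 in KO. Tnnt3 went the other way and did not pass (0.66, adjusted p = 0.373 by edgeR). Neither of the 2 erythroid markers passed. The part of Cidea and of these lists in the values of the heart type isoforms was not tested.

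Finally, the genes whose log2 CPM varied most like each of the 9 genes were listed, after centring on the mean of each genotype, over 12 libraries and among named rows of at least 5 CPM. These correlations are descriptions, since the genes of a heart share its library and depth. Cox6a2 was most like the complex I and V subunit genes Ndufa13 (Pearson r = 0.97) and Atp5c1 (0.95), and Cox4i1 most like Atp5o (0.96) and Cdnf (0.94). Cox7a1 was most like 2010107E04Rik (0.96) and Ndufa4 (0.95), Ndufa4 was most like these same genes in return (Cox7a1 0.95, 2010107E04Rik 0.92), and Cox8b was most like Usmg5 (0.97) and Deb1 (0.95). Cox7a2 was most like the complex I subunit genes Ndufs6 (0.95) and Ndufa1 (0.95).

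The remaining genes had other neighbours. Cox6a1 was most like Psenen (0.93), Cox8a most like Fam213a (0.92) and Cyb5a (0.91), and Cox4i2 most like Dhcr7 (0.91) and Ppil3 (0.91). Within the pairs, r was 0.89 for Cox7a1 and Cox7a2, 0.37 for Cox8b and Cox8a, -0.10 for Cox6a2 and Cox6a1 and -0.65 for Cox4i2 and Cox4i1. KO replicate 3 had both the lowest Cox4i2 (7.65 CPM) and the highest Cox4i1 (1767 CPM) of the KO hearts, apart from the others. How far the r of -0.65 rests on this heart was not tested. The highest r among the 9 genes was that of Cox7a1 and Ndufa4.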

How the data were processed

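RNA of 12 hearts (6 WT and 6 KO) was sequenced. Per the labels, ventricular wall was extracted in Trizol and libraries were made with an Illumina TruSeq kit. The submitters' processing notes name HISAT2 2.0.5 and mm10, whereas the gene identifiers are those of C57BL/6NJ. The authors counted reads per gene with HTSeq and deposited the raw count and the FPKM of each library. The strand setting is not given in the sources used here. The authors' group means, fold changes and p-values in the same table were not used. Only counts entered the tests, and FPKM served for levels between genes.

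Rows with too few counts were removed (filterByExpr), counts were TMM-normalized and the genotypes were compared by edgeR 4.0.16 (quasi-likelihood, R 4.3.3, Benjamini-Hochberg over 17155 rows), with DESeq2 1.42.0 and limma 3.58.1 as alternatives. Ratios used counts plus 0.5 and exact permutation tests (scipy 1.17.1). The fit was tested on simulated data. No label states separate cages or litters, and any 2 libraries of a genotype differed by more than counting noise (chi-square per degree of freedom at least 6.99) and each was counted as 1 replicate. P-values measure the spread between these libraries, which may be technical. Reads shared with processed gene copies were not tested.

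The genes, lists and tests were chosen with earlier results of these data known. All 9 genes, Sdhaf4, the 6 subunits without a heart isoform, Ndufa4l2, Cox7a2l, Hif1a and Rbpj were named whatever their values, other list genes where they passed both stricter thresholds, and for each gene the 2 rows most like it, of which 1 is not reported here. Actn2, Esrra, Eno1, Cox7b2, Hba-a2, Hbb-bs and Hbb-bt were not analysed here, and Cox17 and Pet117 had too few counts.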

Additional observations from a re-analysis of the deposited data

Results flagged for a closer look

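In 7 of 44 groups of 6 values examined, a KO library lay farther from the others than Dixon's 95% critical value allows, where chance gives about 1 in 20 groups (2.2 of 44). All 7 were KO replicate 3. This heart had the highest Cox8b, at 468 CPM against 397 to 415 CPM in the other KO hearts, and the highest Cox4i1, at 1767 CPM against 1437 to 1554 CPM. It had the lowest Cox6a1, at 101 CPM against 121 to 127 CPM, and the lowest Cox4i2, at 7.65 CPM against 10.1 to 10.4 CPM. The log2 ratio of Cox4i2 to Cox4i1 was -7.85 in it, against -7.24 to -7.12 in the others. Relative to the 6 subunits without a heart isoform, Cox6a1 was at -2.47 (others -2.09 to -1.98) and Cox4i2 at -6.19 (others -5.66 to -5.57) on the log2 scale. These values share a library and are not independent of each other.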

How the results depend on the processing

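Fold changes were recomputed under other scalings, tests and filters, ratios with FPKM and with other added counts, and both, with the FPKM shares and sums, with each heart left out. Length and GC trends and the cardiomyocyte reference were chosen after seeing the data. The mitochondrial loci, correlations and marker lists were not recomputed, apart from Cidea and Mylpf. Leaving aside counts of genes, 1127 of these values kept their direction and their side of the threshold (or moved by less than the SD, where there was no test), 4 no longer passed and 7 newly passed. The untested difference of Cox7a2 to the cardiomyocyte markers changed sign without WT replicate 5, ranging from -0.10 to 0.011 over the hearts left out. Among the 9 genes the number lower was 6 under every alternative run, and the number higher was 1 with a replicate block, where Cox8a had an adjusted p of 0.0550 (log2 fold change 0.16), and ranged from 1 to 2 over the hearts left out. The number of other subunit isoforms called higher was 1 by DESeq2, 1 without the filter on low counts and 2 with length and GC trends removed, against 0. Leaving out hearts, the Cox4i2 to Cox4i1 difference ranged from 0.24 to 0.40. Relative to the 6 subunits without a heart isoform, Cox7a2 ranged from 0.021 to 0.057 and Cox4i2 from 0.19 to 0.32, and Cox4i1 was at -0.076 with their median as the reference (exact permutation p = 0.0195). The replicate numbers did not pair the hearts (correlations of deviations from -0.16 to 0.024, none best with its own number), and with the replicate block the ratio differences of the heart and liver pairs reached the smallest p of that test (0.0312, exact). Cox4i2 had the fewest counts of the 9 genes, at most 319 per library.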
